A study of Mus musculus with 12 samples.

Results

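Imprinted genes, which are expressed mainly from the copy inherited from one parent, were followed in mouse ES cells and in the XEN-like cells obtained from them. The 49 genes were chosen by name from the known imprinted clusters. Of these, 48 were read by 90 probes of the array, among 34836 gene names, and *Rian* had no probe. A gene was tested where all 3 arrays of some group read it well above background, which held for 39 of the 48, among 18992 genes tested in all.

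RNA of 4 groups was hybridized to 12 one-colour Agilent arrays, 3 per group. *Sox7* (+/−) ES cells and *Sox7* (−/−) ES cells were cultured without dexamethasone (Dex). *Sox7* (+/−) and *Sox7* (−/−) XEN-like cells had been treated with Dex for 4 days. All 4 groups carry *Gata6GR*, a fusion of Gata6 with the ligand-binding domain of the glucocorticoid receptor that Dex sends to the nucleus, and Gata6 there drives ES cells towards extraembryonic endoderm. The *Sox7* (−/−) line was a subclone of the *Sox7* (+/−) line obtained by selection at a high dose of puromycin, so that each genotype is 1 clone and *Sox7* cannot be told apart from other differences between the clones. No cells without *Gata6GR* were treated with Dex, so that Gata6 activity and Dex itself cannot be told apart. Sources of all 3 *Sox7* (+/−) ES arrays carry the same replicate number in the labels, whereas the titles number them 1 to 3. Neither labels nor methods state whether replicates came from different cultures, so p-values measure the spread between these arrays, which may be technical.

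In imprinting, DNA methylation laid down in the egg or the sperm marks a control region, and that mark decides which parental copy of the neighbouring genes is read. Most imprinted genes lie in clusters that share one control region, often with a long noncoding RNA made from the copy on which the protein-coding genes are silent. The marks are kept through the early embryo by Dnmt1 and by Zfp57, a zinc finger protein that binds the methylated hexamer TGCCGC and recruits Trim28. ES cell lines are known to gain or lose such marks in culture. The arrays measure total RNA of each gene and do not tell the parental copies apart, and no methylation was measured.

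Levels are given below as percent of the array's own 75th percentile of signal. Log2 differences come from 1 limma fit of all 12 arrays, and calls needed a change beyond 2-fold with a p under 0.05 after Benjamini-Hochberg adjustment. *Sox7* itself had levels of 224, 218 and 229% in *Sox7* (+/−) ES cells and of 490, 495 and 688% in *Sox7* (+/−) XEN-like cells, and was not well above background on any of the 6 *Sox7* (−/−) arrays. The summed level of 8 primitive endoderm markers was 39510 to 41039% in *Sox7* (+/−) ES, 114878 to 124400% in *Sox7* (+/−) XEN-like, 30000 to 33039% in *Sox7* (−/−) ES and 106464 to 110387% in *Sox7* (−/−) XEN-like arrays. Most of it was *Lama1*, with means of 29377% in *Sox7* (+/−) and 22046% in *Sox7* (−/−) ES cells. The others had means from 641% (*Pdgfra*) to 4824% (*Col4a1*) in *Sox7* (+/−) ES cells. In *Sox7* (−/−) ES cells these ran from 561% (*Foxa2*) to 2935% (*Col4a1*). All 8 were well above background on every ES array. Of 6 ES markers, 5 fell in *Sox7* (+/−) cells and 6 in *Sox7* (−/−) cells. Of 2 slides, the first carried *Sox7* (−/−) XEN-like replicate 1 along with all *Sox7* (−/−) ES arrays, and slide 2 carried the other 8, so the ES comparison of the genotypes lies wholly between slides. Replicate correlations lay between 0.982 and 0.996, the lowest with *Sox7* (+/−) XEN-like replicate 3, which stood apart in several imprinted genes named below. A lower level can mean fewer expressing cells or less RNA per cell, which cannot be told apart in bulk RNA.

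To separate Dex responses from differences between the lines, each gene was read in both genotypes and in both states. In *Sox7* (+/−) cells, 6 of the 39 imprinted genes were higher and 11 lower with Dex, which is 43.6% of them, beside 25.1% of all genes tested called in either direction, 11% higher and 14.1% lower. The split was 3 higher and 12 lower in the deposited table and 3 and 14 with spike-in scaling. There 17.8% and 25.9% of all genes were called in either direction. In *Sox7* (−/−) cells 10 were higher and 8 lower, which is 46.2%, beside a background of 28.7%, 14.6% higher and 14.1% lower. Called the same way in both genotypes were 12 (30.8%), beside 18.9% of all genes, 8.35% higher and 10.6% lower. Of these 12, *Airn*, *Peg3*, *Sgce*, *Peg12* and *Gnas* rose, and *Calcr*, *Phlda2*, *Ascl2*, *Slc22a18*, *Snrpn*, *Magel2* and *Zdbf2* fell. Spike-in scaling gave 3 higher and 7 lower, beside 17.8% of all genes in either direction. Between the genotypes in ES cells, 10 were lower in *Sox7* (−/−) and 0 higher (limma; 6 were higher at an unadjusted p under 0.05), so that 25.6% were called, beside 8.6% of all genes in either direction, 6.63% called lower and 1.97% higher. In XEN-like cells, 7 were higher and 4 lower in *Sox7* (−/−), which is 28.2%, beside 7.56% of all genes, 4.15% higher and 3.41% lower. The median log2 difference in ES cells was −0.26 over the 39 genes and 0.11 over all genes tested.

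The same direction between the lines in both states was called in 3 genes, *Mest*, *Airn* and *Zdbf2*, all lower in *Sox7* (−/−), beside 1.41% of all genes in either direction, 1.05% lower and 0.363% higher. A further 6 were called in ES cells alone, 7 in XEN-like cells alone, and *H19* in opposite directions. The shares of all genes in these last classes were not counted. *Airn* and *Zdbf2* were called both by Dex and between the lines, whereas *Mest* was called between the lines alone. The Dex response itself was called as differing between the genotypes in 12 genes, all with the higher value in *Sox7* (−/−) (limma; 6 had the lower value there at an unadjusted p under 0.05), beside 10.2% of all genes in either direction, 7.05% higher and 3.16% lower.

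**Figure D1:**
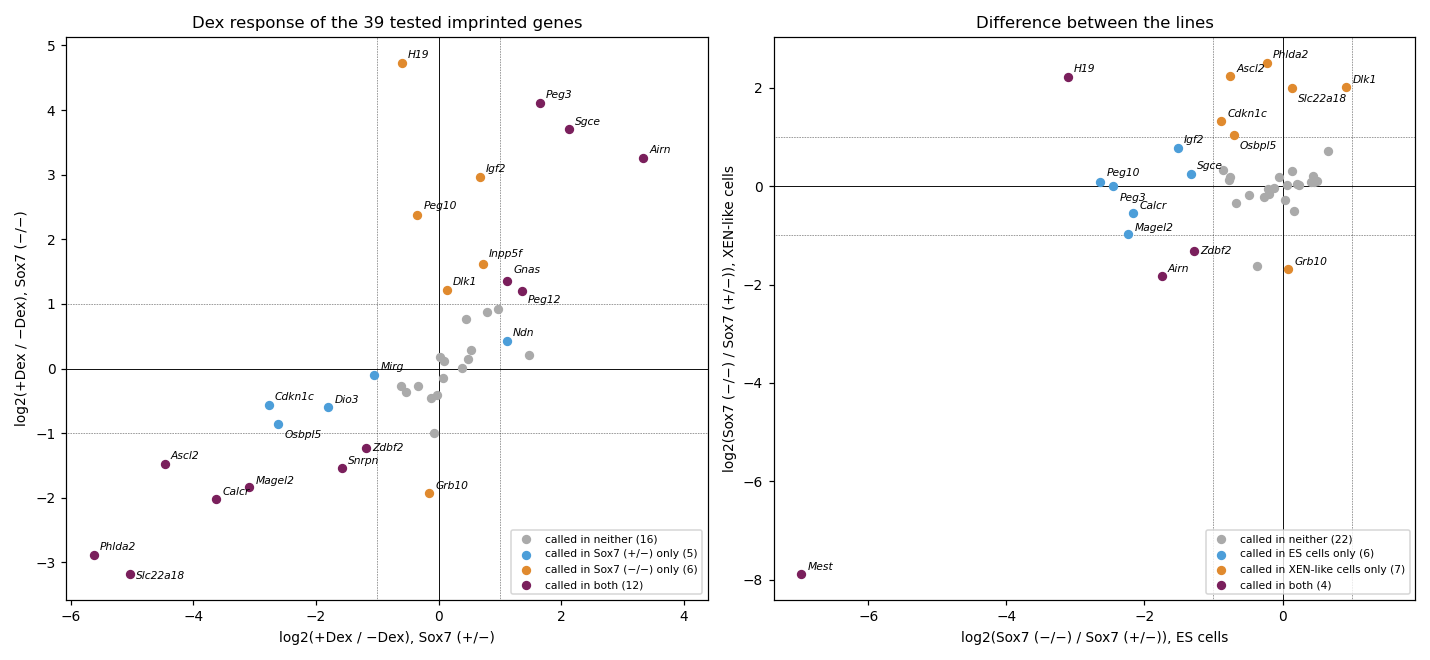
Log2 differences of the 39 tested imprinted genes, 1 point per gene read by its brightest probe. Left, the Dex response of *Sox7* (−/−) cells (vertical axis) against that of *Sox7* (+/−) cells (horizontal axis); right, *Sox7* (−/−) over *Sox7* (+/−) in XEN-like cells (vertical) against ES cells (horizontal), with dotted lines at 2-fold. *Mest* lies farthest out at the lower left, where its place rests on *Sox7* (−/−) signals not well above background, as do places of *Calcr*, *Phlda2*, *Slc22a18*, *Magel2* and *Dio3* on such signals in at least 1 group, and *H19* is low in *Sox7* (−/−) ES cells but high in *Sox7* (−/−) XEN-like cells.

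The 3 genes that separate the lines in both states are shown by sequence. Windows of the 250 bases upstream of RefSeq transcript starts (build GRCm38.p6) were found for 40 of the 49 genes. TGCCGC or its reverse complement GCGGCA, searched on the strand printed so that both strands are covered, occurred in 8.68% of all 32851 windows and in 10 of the 40 genes with a window, against 9.84% of all genes with one. *Mest* has starts at 2 places. The window of the upstream one, at chr6:30733256-30733505 on the plus strand, holds 0 hexamers and 7 CG dinucleotides and is not printed. The window of the downstream one, at chr6:30737800-30738049 on the plus strand, holds the hexamer at 2 positions, shown in capitals, and 14 CG dinucleotides. The median was 6 over all windows and 11.5 over the windows of the imprinted genes. The hexamer itself contains a CG, and the shares with the hexamer were not matched for CG content. *Zdbf2* has a window at chr1:63200108-63200357 on the plus strand with 3 hexamers and 13 CG dinucleotides, and a second, distant start without the hexamer. *Airn* has a window at chr17:12741061-12741310 on the plus strand with 0 hexamers and 2 CG dinucleotides. The control regions of the clusters were not located, so these windows do not tell whether a control region holds the hexamer.
Mest: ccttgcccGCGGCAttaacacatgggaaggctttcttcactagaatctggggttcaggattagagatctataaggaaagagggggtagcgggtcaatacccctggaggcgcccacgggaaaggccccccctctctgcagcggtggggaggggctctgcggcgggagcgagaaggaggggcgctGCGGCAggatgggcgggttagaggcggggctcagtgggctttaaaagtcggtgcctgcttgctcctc
Zdbf2: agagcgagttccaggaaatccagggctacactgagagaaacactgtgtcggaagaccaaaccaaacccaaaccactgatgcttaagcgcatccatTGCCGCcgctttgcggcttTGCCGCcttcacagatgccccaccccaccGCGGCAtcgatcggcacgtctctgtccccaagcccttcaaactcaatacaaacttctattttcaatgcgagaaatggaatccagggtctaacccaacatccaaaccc
Airn: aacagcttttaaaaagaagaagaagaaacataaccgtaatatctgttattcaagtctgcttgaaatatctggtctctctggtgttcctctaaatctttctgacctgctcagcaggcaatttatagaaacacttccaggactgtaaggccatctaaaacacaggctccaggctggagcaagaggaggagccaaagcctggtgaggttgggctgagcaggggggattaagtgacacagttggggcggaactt

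*Mest*, a paternally expressed member of the hydrolase family, had levels of 471, 454 and 433% in *Sox7* (+/−) ES cells and of 462, 397 and 430% in *Sox7* (+/−) XEN-like cells. On the *Sox7* (−/−) arrays the same probe (mm9 chr6:30698279-30698338) gave 3.13, 5.46 and 2.74% in ES cells and 2.28, 1.67 and 1.56% in XEN-like cells. It was not well above background on any *Sox7* (−/−) array, and the groups lay far apart. Taken against the lowest signal well above background on each *Sox7* (−/−) array, or the probe's own signal where that was higher, *Mest* was at least 50.0-fold higher in *Sox7* (+/−) ES cells (limma adjusted p = 2.5e-08) and at least 57.4-fold higher in *Sox7* (+/−) XEN-like cells (adjusted p = 2.9e-08). The same held for the 2 other *Mest* probes, which were dimmer and gave bounds of at least 24.3-fold and 3.23-fold in ES cells and 27.7-fold and 3.36-fold in XEN-like cells. The call held within slide 2, against *Sox7* (−/−) XEN-like replicates 2 and 3 (adjusted p = 3.0e-07), and in ES cells with the slide as a block (adjusted p = 1.1e-05). Dex did not move it by a called amount, with a log2 difference of −0.08 ± 0.23 (standard error) in *Sox7* (+/−) cells. In *Sox7* (−/−) cells it was at −0.99 (adjusted p = 0.0033), from signals not well above background. That value was called with spike-in scaling (−1.08) and median scaling (−1.12). It was also called without *Sox7* (−/−) ES replicate 1 (−1.09) or 3 (−1.19) or *Sox7* (−/−) XEN-like replicate 1 (−1.16).

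No tested gene next to *Mest* was called lower in both states. *Copg2*, a coat protein gene whose 3′ end meets that of *Mest* on the opposite strand, had levels of 346, 351 and 278% in *Sox7* (+/−) ES cells and of 566, 477 and 487% in *Sox7* (−/−) ES cells. In XEN-like cells its levels were 329, 308 and 168% in *Sox7* (+/−) and 478, 420 and 370% in *Sox7* (−/−). Every *Sox7* (−/−) array lay above every *Sox7* (+/−) array of the same state, with log2 differences of 0.65 (adjusted p = 0.040) and 0.71 (adjusted p = 0.037), which are under 2-fold. With the slide as a block the values were 0.38 (adjusted p = 0.61) and 0.62 (adjusted p = 0.11), and in the deposited table the XEN-like one was called (1.09). Of 11 tested genes with a probe within 500 kb, *Copg2* among them, 0 were called lower in both states by limma, none had an adjusted p under 0.05 with a lower value in both, 1 was called in 1 state (*AB041803*, −1.37 in XEN-like cells), and the log2 differences ran from −0.41 to 0.65 in ES cells and from −1.37 to 0.71 in XEN-like cells.

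**Figure D2:**
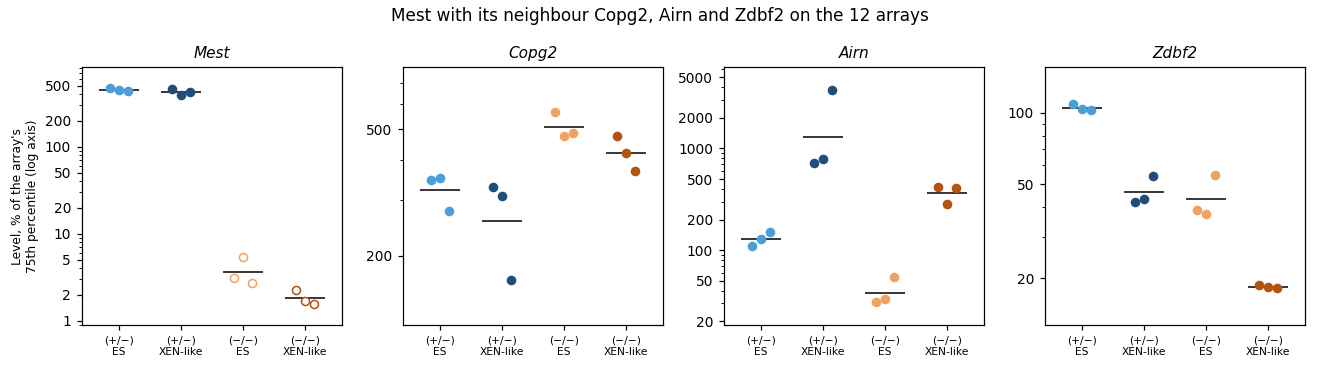
Levels of *Mest*, its neighbour *Copg2*, *Airn* and *Zdbf2* in percent of the array's 75th percentile (vertical, log axis) on the 3 arrays of each of the 4 groups (horizontal). Points are arrays, bars the mean of the log2 values, and open points mark groups in which no array was well above background. *Mest* is at 397 to 471% in *Sox7* (+/−) and at 5.46% or less in *Sox7* (−/−), *Copg2* is not lower in *Sox7* (−/−), and *Sox7* (+/−) XEN-like replicate 3 stands high in *Airn*.

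*Airn*, the paternally expressed noncoding RNA that runs through and silences *Igf2r*, rose with Dex in both lines and stayed lower in *Sox7* (−/−). Its brightest probe lies at mm9 chr17:12944784-12944843 on the plus strand, and its sequence, like that of the *H19* probe described further on, is given because these RNAs code for no protein and the probe is what was read. The levels were 109, 128 and 150% in *Sox7* (+/−) ES cells and 723, 791 and 3779% in *Sox7* (+/−) XEN-like cells. The *Sox7* (−/−) line had 30.6, 32.7 and 55.0% in ES and 416, 286 and 405% in XEN-like cells. The groups did not overlap in any of the 4 comparisons, and replicate 3 of *Sox7* (+/−) XEN-like cells was far above the other arrays of its group. On that array a second *Airn* probe, described below, read 376%. Whether the brightest probe reads *Airn* alone was not tested.
Airn probe: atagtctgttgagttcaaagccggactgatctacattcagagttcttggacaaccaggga
H19 probe: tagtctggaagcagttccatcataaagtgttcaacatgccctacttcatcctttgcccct

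The rises with Dex were 3.34 ± 0.54 in *Sox7* (+/−) cells (log2 ± standard error, adjusted p = 3.5e-04) and 3.26 ± 0.54 in *Sox7* (−/−) cells (adjusted p = 3.6e-04). Between the lines the log2 differences were −1.75 in ES cells (adjusted p = 0.023) and −1.83 in XEN-like cells (adjusted p = 0.025). Both calls between the lines were lost with the slide as a block (−2.04, adjusted p = 0.23, and −1.93, adjusted p = 0.052), and the XEN-like one within slide 2 (−1.93, adjusted p = 0.089) and in a fit of the compared arrays alone (adjusted p = 0.087). With no filter on dim probes the ES call was lost as well (adjusted p = 0.052). Without *Sox7* (+/−) XEN-like replicate 3 the values were −1.75 (adjusted p = 3.0e-04) and −1.06 (adjusted p = 0.014). The ES call was also lost without *Sox7* (+/−) ES replicate 2 (−1.75, adjusted p = 0.059) or 3 (−1.64, adjusted p = 0.073) and without *Sox7* (−/−) ES replicate 1 (−1.59, adjusted p = 0.073) or 2 (−1.64, adjusted p = 0.071). The XEN-like call was lost without *Sox7* (−/−) XEN-like replicate 1 (−1.93, adjusted p = 0.054), 2 (−1.66, adjusted p = 0.081) or 3 (−1.91, adjusted p = 0.051). A second *Airn* probe, at mm9 chr17:13008078-13008137, had levels of 57.2, 65.5 and 58.6% against 31.1, 24.3 and 30.7% in ES cells and of 224, 248 and 376% against 147, 125 and 139% in XEN-like cells, *Sox7* (+/−) first. This probe was lower in *Sox7* (−/−) by 1.08 and 1.01 on the log2 scale (adjusted p = 9.9e-04 and 0.0022), and another, dim probe was called in ES cells alone. *Igf2r* itself, the maternally expressed receptor that clears Igf2, had levels of 676, 661 and 596% in *Sox7* (+/−) ES, 1235, 1267 and 879% in *Sox7* (+/−) XEN-like, 549, 553 and 679% in *Sox7* (−/−) ES and 1142, 998 and 1105% in *Sox7* (−/−) XEN-like cells. It was higher with Dex by 0.79 and 0.87 on the log2 scale, under 2-fold in both lines, and the lines overlapped in each state.

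*Zdbf2*, a paternally expressed zinc finger gene, fell with Dex and was lower in *Sox7* (−/−) to about the same extent. The levels were 109, 103 and 102% in *Sox7* (+/−) ES, 42.0, 43.2 and 54.0% in *Sox7* (+/−) XEN-like, 38.9, 37.5 and 54.7% in *Sox7* (−/−) ES and 18.7, 18.4 and 18.1% in *Sox7* (−/−) XEN-like cells. No array of 1 line overlapped with the other line in the same state. Dex lowered it by log2 differences of −1.18 and −1.22 (adjusted p = 4.2e-05 and 2.7e-05), and the lines differed by −1.28 in ES cells (adjusted p = 8.6e-05) and −1.32 in XEN-like cells (adjusted p = 1.0e-04). The latter was −1.33 within slide 2 (adjusted p = 8.6e-04). With normexp background correction the differences between the lines were −0.91 and −0.68 and in the deposited table −1.0 and −0.45, under 2-fold in each. The limma adjusted p of these ran from 3.8e-06 to 0.036. The Dex differences were −0.80 and −0.57 with normexp, and in *Sox7* (−/−) cells −0.74 in the deposited table. The second *Zdbf2* probe, with a log2 difference of −1.02 in ES cells, was called there (adjusted p = 0.040; −1.44 with the slide as a block, adjusted p = 0.19) and was at −0.80, not called, in XEN-like cells.

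*H19*, a maternally expressed noncoding RNA of fetal tissues, and *Igf2*, the growth factor that shares its control region, are normally read from opposite copies. On the *H19* probe at mm9 chr7:149761492-149761551, minus strand, *Sox7* (+/−) ES cells had 496, 445 and 519% and *Sox7* (−/−) ES cells 59.5, 58.7 and 50.7%. With Dex the order turned, at 313, 251 and 416% in *Sox7* (+/−) XEN-like cells and 1919, 1243 and 1388% in *Sox7* (−/−) XEN-like cells. The groups did not overlap in either state. *H19* was lower by 3.11 ± 0.20 on the log2 scale in *Sox7* (−/−) ES cells (adjusted p = 1.8e-06), and higher by 2.22 ± 0.20 in *Sox7* (−/−) XEN-like cells (adjusted p = 2.7e-05), with 2.04 within slide 2 (adjusted p = 0.0012). It rose by 4.73 with Dex in *Sox7* (−/−) cells (adjusted p = 1.1e-08) and was at −0.60 in *Sox7* (+/−) cells, under 2-fold, though called as lower with spike-in scaling (−1.09) and in the deposited table (−1.08). All 6 tested *H19* probes were called in the same directions in these comparisons between the lines.

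*Igf2* moved the same way as *H19* in *Sox7* (−/−) cells and not the opposite way. Its levels were 177, 170 and 150% in *Sox7* (+/−) ES, 260, 265 and 267% in *Sox7* (+/−) XEN-like, 60.6, 51.9 and 62.1% in *Sox7* (−/−) ES and 460, 472 and 431% in *Sox7* (−/−) XEN-like cells. In ES cells *Igf2* was lower in *Sox7* (−/−) by a log2 difference of −1.51 (adjusted p = 1.1e-06). With Dex it rose by 2.97 in *Sox7* (−/−) cells (adjusted p = 1.1e-09) and was at 0.67 in *Sox7* (+/−) cells, under 2-fold. The XEN-like difference of 0.78 did not reach 2-fold, but was called with spike-in scaling (1.03) and in the deposited table (1.16).

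Paternally expressed genes of the *Peg3* and *Peg10* clusters showed the same low level in *Sox7* (−/−) ES cells but met the *Sox7* (+/−) level after Dex. *Peg3*, a zinc finger gene, had levels of 169, 169 and 171% in *Sox7* (+/−) ES cells, 31.8, 24.1 and 39.1% in *Sox7* (−/−) ES cells, 492, 524 and 585% in *Sox7* (+/−) XEN-like cells and 531, 505 and 575% in *Sox7* (−/−) XEN-like cells. The ES groups were far apart and the XEN-like groups overlapped. In ES cells the log2 difference was −2.45 (adjusted p = 1.4e-06), and in XEN-like cells 0.01 ± 0.15 (adjusted p = 0.97). *Peg10*, a gene derived from a retrotransposon and needed in the placenta, had 134, 141 and 125% in *Sox7* (+/−) ES cells and 19.8, 21.1 and 23.4% in *Sox7* (−/−) ES cells. Its XEN-like levels were 92.3, 107 and 116% in *Sox7* (+/−) and 111, 101 and 121% in *Sox7* (−/−) cells. So *Peg10* was lower by 2.64 on the log2 scale in *Sox7* (−/−) ES cells (adjusted p = 9.1e-08) and at 0.08 ± 0.11 in XEN-like cells.

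*Sgce*, which codes for epsilon-sarcoglycan and shares a promoter region with *Peg10*, was likewise called lower in *Sox7* (−/−) ES cells and not called between the XEN-like lines. With Dex the genes parted in *Sox7* (+/−) cells, where *Peg10* was at −0.35 on the log2 scale (limma adjusted p = 0.018), under 2-fold, and *Sgce* rose. The *Sgce* levels were 78.5, 86.0 and 87.3% in *Sox7* (+/−) ES, 36.0, 31.5 and 32.9% in *Sox7* (−/−) ES, 396, 392 and 313% in *Sox7* (+/−) XEN-like and 437, 452 and 419% in *Sox7* (−/−) XEN-like cells. It rose with Dex in both lines, by 2.12 and 3.70 on the log2 scale (adjusted p = 3.7e-08 and 5.6e-10), and the ES difference between the lines was −1.33 (adjusted p = 6.7e-06), or −0.96 in the deposited table and −0.86 with normexp, under 2-fold. *Calcr*, the calcitonin receptor gene at the far side of the cluster, was at 35.7, 30.2 and 32.8% in *Sox7* (+/−) ES cells and not well above background on any other array. In *Sox7* (+/−) ES cells it exceeded the *Sox7* (−/−) ES level at least 3.63-fold (adjusted p = 6.2e-06) and the *Sox7* (+/−) XEN-like level at least 3.50-fold (adjusted p = 2.5e-08). In the deposited table and with normexp, however, the ES difference was −0.99 and −0.78. Its call with Dex in *Sox7* (−/−) cells and in the difference of responses rests on signals not well above background. *Ppp1r9a*, a neurabin gene of the same cluster, moved by less than 2-fold in all comparisons, except with Dex in *Sox7* (+/−) cells under spike-in scaling (−1.02).

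**Figure D3:**
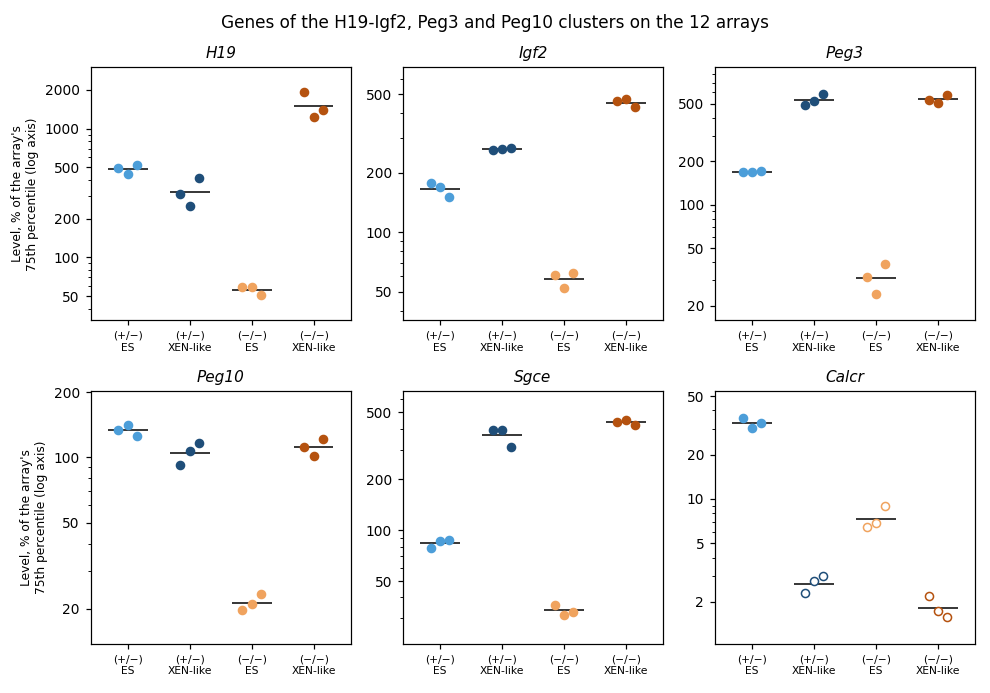
Levels of 6 genes of the *H19*-*Igf2*, *Peg3* and *Peg10* clusters in percent of the array's 75th percentile (vertical, log axis) on the 3 arrays of each group (horizontal). Points are arrays, bars the mean of the log2 values, and open points mark groups in which no array was well above background. All 6 genes are lower in the *Sox7* (−/−) ES group than in the other ES group, and *H19* and *Igf2* end highest in *Sox7* (−/−) XEN-like cells.

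With *Airn*, *Mest*, *Zdbf2* and *Magel2*, these 6 genes are the 10 called lower in *Sox7* (−/−) ES cells. The slide as a block left 8 of the 10, without *Airn* and *Magel2*. For *H19*, *Igf2*, *Peg3*, *Peg10* and *Sgce* the blocked ES differences were −3.66, −1.54, −2.43, −2.64 and −1.33, with the slide told apart from the genotype through *Sox7* (−/−) XEN-like cells alone. Some cell type markers also differed between the ES groups. The summed level of the 8 primitive endoderm markers was lower in *Sox7* (−/−) ES cells without overlap (ranges above). Most of it was *Lama1*, at 22046% in *Sox7* (−/−) against 29377% in *Sox7* (+/−) ES cells. By limma 0 of the 8 were called (2 higher and 4 lower at an unadjusted p under 0.05). The summed level of the 6 ES markers was 41178 to 44353% against 19866 to 20982%, with *Zfp42* and *Esrrb* called higher. Of 7 tested trophoblast markers, *Cdx2*, *Hand1* and *Krt7* were lower in *Sox7* (−/−) ES cells. The summed level over 8 markers was 7558 to 11423% against 12391 to 13705%. Most of it was *Gcm1*, which was not called (8805% against 12122%, limma adjusted p = 0.34). Of 6 tested fibroblast markers, *Col1a2* and *Twist2* were lower and *Col1a1* higher, with summed levels of 457 to 479% against 402 to 447%, and *Thy1* was at 177 ± 5.49% in *Sox7* (+/−) and 184 ± 6.74% in *Sox7* (−/−) ES cells (SD, n = 3). The part of these cells in the imprinted genes was not tested.

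The *Kcnq1* cluster holds maternally expressed genes that restrain growth of embryo and placenta. Here 5 of its 9 tested genes fell with Dex in *Sox7* (+/−) cells and, among XEN-like cells, were higher in the *Sox7* (−/−) line. Beside these stand 14.1% of all genes that fell with Dex there and 4.15% that were higher between the XEN-like lines. Both comparisons use the same *Sox7* (+/−) XEN-like arrays, so a low reading there enters both. The share of all genes that meet both was not counted. *Ascl2*, a transcription factor of the placental spongiotrophoblast, had levels of 348, 343 and 344% in *Sox7* (+/−) ES and 18.9, 11.1 and 18.2% in *Sox7* (+/−) XEN-like cells. The *Sox7* (−/−) line had 198, 211 and 202% in ES and 79.7, 66.9 and 74.5% in XEN-like cells. The 4 groups did not overlap, and the probe was well above background on 2 of the 3 *Sox7* (+/−) XEN-like arrays. *Ascl2* fell by 4.46 ± 0.17 with Dex in *Sox7* (+/−) cells (log2, adjusted p = 9.5e-09) and by 1.47 ± 0.17 in *Sox7* (−/−) cells (adjusted p = 3.0e-05), and the XEN-like groups differed by 2.23 (adjusted p = 1.2e-05), or 2.18 within slide 2 (adjusted p = 0.0015).

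*Phlda2*, which limits placental growth, showed 164, 142 and 160% in *Sox7* (+/−) ES and 148, 129 and 122% in *Sox7* (−/−) ES cells. After Dex it was at 4.27, 2.64 and 2.77% in *Sox7* (+/−) XEN-like cells, where it was not well above background, and at 21.0, 18.1 and 15.2% in *Sox7* (−/−) XEN-like cells. The ES groups overlapped and the XEN-like groups did not. It was at least 16.5-fold lower after Dex in *Sox7* (+/−) cells (adjusted p = 3.1e-09), 7.39-fold lower in *Sox7* (−/−) cells (adjusted p = 2.8e-07), and after Dex the *Sox7* (−/−) level exceeded that of *Sox7* (+/−) cells at least 1.91-fold (adjusted p = 8.1e-06). *Slc22a18*, a transporter gene beside it, had 121, 126 and 121% and 129, 142 and 134% in the ES groups, *Sox7* (+/−) first, and 3.49, 2.42 and 6.16% and 21.9, 12.6 and 12% in the XEN-like groups. The fall was at least 13-fold in *Sox7* (+/−) cells (adjusted p = 2.7e-07) and the XEN-like difference at least 1.58-fold (adjusted p = 0.0010). With normexp the XEN-like differences of *Phlda2* and *Slc22a18* were 0.43 and 0.32 on the log2 scale, and in the deposited table that of *Slc22a18* was 0.86, all under 2-fold.

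*Cdkn1c*, the p57 inhibitor of the cell cycle, had levels of 881, 735 and 798% in *Sox7* (+/−) ES, 139, 162 and 72.6% in *Sox7* (+/−) XEN-like, 485, 387 and 431% in *Sox7* (−/−) ES and 384, 280 and 236% in *Sox7* (−/−) XEN-like cells. It fell by 2.77 on the log2 scale with Dex in *Sox7* (+/−) cells (adjusted p = 1.0e-05) and was at −0.56 in *Sox7* (−/−) cells (adjusted p = 0.098). The lowest value was that of *Sox7* (+/−) XEN-like replicate 3, and without it the XEN-like difference of 1.32 (adjusted p = 0.0052) became 0.97, under 2-fold. *Osbpl5*, an oxysterol-binding protein gene, behaved likewise, at 1068, 1042 and 968% against 190, 181 and 136% in *Sox7* (+/−) cells and 586, 656 and 647% against 363, 345 and 329% in *Sox7* (−/−) cells, ES first. Its XEN-like difference was 1.04 (adjusted p = 1.5e-04) and without replicate 3 it was 0.89, with quantile normalization 0.96 and with median scaling 0.98. In ES cells *Cdkn1c*, *Ascl2* and *Osbpl5* were lower in *Sox7* (−/−), under 2-fold. The log2 differences were −0.89, −0.76 and −0.71 (limma adjusted p = 0.024, 0.0056 and 0.0011). With the slide as a block the adjusted p were 0.075, 0.096 and 0.045. *Cdkn1c* was called there with quantile normalization (−1.03) and spike-in scaling (−1.05).

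*Kcnq1ot1*, the noncoding RNA that silences this cluster on the paternal copy, was not called in any comparison with all 12 arrays and the settings used throughout. Its levels were 44.1, 49.8 and 52.0% in *Sox7* (+/−) ES, 68.9, 74.7 and 473% in *Sox7* (+/−) XEN-like, 33.7, 26.2 and 61.0% in *Sox7* (−/−) ES and 49.3, 34.5 and 48.1% in *Sox7* (−/−) XEN-like cells. The value of 473% came from *Sox7* (+/−) XEN-like replicate 3, the array that also stood high in *Airn*. The log2 differences of 1.47 with Dex in *Sox7* (+/−) cells and −1.63 between the lines in XEN-like cells were called with an intensity trend, with normexp (1.10 and −1.18), and without *Sox7* (+/−) XEN-like replicate 1 (1.95 and −2.11) or 2 (1.90 and −2.06). *Cd81*, *Tssc4* and *Nap1l4*, genes at the edges of the cluster, had log2 differences between −0.49 and 0.76 and were not called, and *Kcnq1* was not well above background on all 3 arrays of any group.

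**Figure D4:**
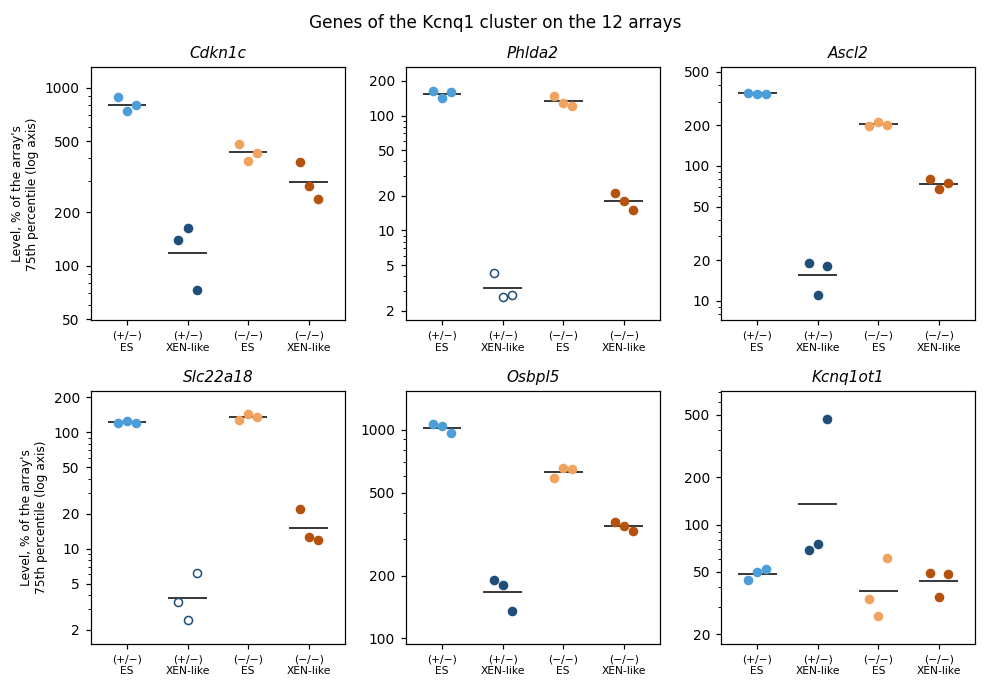
Levels of 6 genes of the *Kcnq1* cluster in percent of the array's 75th percentile (vertical, log axis) on the 3 arrays of each group (horizontal). Points are arrays, bars the mean of the log2 values, and open points mark groups in which no array was well above background. The 5 coding genes are lowest in *Sox7* (+/−) XEN-like cells, and *Kcnq1ot1* has 1 high array there.

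Some markers also differed between the XEN-like groups. The trophoblast markers *Cdx2*, *Eomes* and *Hand1* were higher in *Sox7* (−/−) XEN-like cells, *Eomes* at 181 ± 21.0% against 48.7 ± 2.93% and *Cdx2* at 10.8 ± 2.06% against 3.48 ± 1.75% (SD, n = 3), whereas *Hand1* was not well above background in either group. Over the whole list the summed level was 12824 to 15983% in *Sox7* (−/−) and 14477 to 51284% in *Sox7* (+/−) XEN-like cells, most of it *Gcm1*. Of the 6 ES markers, *Zfp42* and *Esrrb* were called higher, *Pou5f1* was at 1.37 (log2, adjusted p = 0.054), and *Tdgf1* was at −0.97 (adjusted p = 0.016), under 2-fold. Their summed levels were 1236 to 1549% against 514 to 812%, and *Sox2* and *Nanog* were not well above background on any of the 6 XEN-like arrays. Of the 8 primitive endoderm markers *Dab2* alone was called, higher by 1.07 on the log2 scale. Fibroblast markers had 0 calls in XEN-like cells by limma, and 0 at an unadjusted p under 0.05. The part of such cells in the *Kcnq1* cluster was not tested.

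In the *Dlk1*-*Dio3* cluster the paternally expressed *Dlk1*, a Notch ligand homologue known also as a preadipocyte factor, stood out. It had levels of 110, 129 and 100% in *Sox7* (+/−) ES, 118, 105 and 151% in *Sox7* (+/−) XEN-like, 231, 209 and 203% in *Sox7* (−/−) ES and 550, 473 and 473% in *Sox7* (−/−) XEN-like cells. *Sox7* (−/−) arrays were above *Sox7* (+/−) arrays in both states. In XEN-like cells *Dlk1* was higher in *Sox7* (−/−) by 2.01 ± 0.14 on the log2 scale (adjusted p = 5.8e-06; 1.94 within slide 2, adjusted p = 7.9e-04), and by 0.93 in ES cells, under 2-fold. It rose by 1.22 with Dex in *Sox7* (−/−) cells (adjusted p = 2.6e-05) and was at 0.13 in *Sox7* (+/−) cells. A second, dimmer *Dlk1* probe was called higher in *Sox7* (−/−) ES cells as well (1.06, adjusted p = 0.0011), but was at 0.80 with the slide as a block (adjusted p = 0.14). Without *Sox7* (+/−) ES replicate 2 the brighter probe was called in ES cells too (1.02).

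The maternally expressed noncoding RNAs of this cluster were not silent in either line. *Meg3* had 2133, 2254 and 2350% in *Sox7* (+/−) ES, 1650, 1816 and 1061% in *Sox7* (+/−) XEN-like, 1688, 1088 and 1517% in *Sox7* (−/−) ES and 1129, 1124 and 1240% in *Sox7* (−/−) XEN-like cells, with no comparison past 2-fold except the fall with Dex in *Sox7* (+/−) cells under spike-in scaling (−1.10) and in the deposited table (−1.01). A second *Meg3* probe was lower in *Sox7* (−/−) ES cells by 1.10 on the log2 scale (adjusted p = 1.5e-04) and was at −0.71, under 2-fold, in XEN-like cells. *Mirg*, which hosts microRNAs, had 1111, 995 and 1133% against 614, 608 and 381% in *Sox7* (+/−) and 669, 555 and 685% against 532, 624 and 623% in *Sox7* (−/−) cells, ES first. It fell by 1.05 with Dex in *Sox7* (+/−) cells (log2, adjusted p = 4.5e-04), and by 0.82 without replicate 3, which is under 2-fold. Its 3 probes disagreed. The dimmest one rose by 1.18 in *Sox7* (+/−) cells and was higher by 2.48 in *Sox7* (−/−) ES cells. The second one went with the brightest, from 562% to 277% with Dex in *Sox7* (+/−) cells (group means), and was at 246% in *Sox7* (−/−) ES cells. Between the lines in ES cells the brightest was at −0.77 (limma adjusted p = 0.0056), or −0.54 with the slide as a block (adjusted p = 0.31). The median over the probes was called lower there (−1.06). The direction of *Mirg* thus depends on the probe. *Dio3*, the deiodinase that inactivates thyroid hormone, was at 15.4, 12.5 and 13.8% in *Sox7* (+/−) ES cells and at 8.80, 2.25 and 3.18% in *Sox7* (+/−) XEN-like cells, where it was not well above background. The fall was at least 1.47-fold (adjusted p = 0.031), and the call was lost with normexp, without any one *Sox7* (+/−) ES array (log2 differences from −1.72 to −1.87) and without *Sox7* (+/−) XEN-like replicate 2 (−1.38) or 3 (−1.64).

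In the *Snrpn*-*Ube3a* cluster, the region of the Prader-Willi and Angelman syndromes, *Snrpn* fell by about the same amount in both lines. The levels were 587, 612 and 574% and 219, 213 and 167% in *Sox7* (+/−) ES and XEN-like cells, and 502, 558 and 490% and 187, 174 and 170% in *Sox7* (−/−) ES and XEN-like cells. The log2 differences with Dex were −1.58 (adjusted p = 5.0e-07) and −1.55 (adjusted p = 4.6e-07), and those between the lines −0.20 and −0.16. *Magel2*, a MAGE family gene, had 64.5, 73.4 and 74.8% in *Sox7* (+/−) ES and 18.5, 15.3 and 12.1% in *Sox7* (−/−) ES cells and was not well above background on any XEN-like array. It fell at least 7.08-fold and 2.02-fold with Dex (adjusted p = 1.2e-05 and 4.6e-04), the latter under 2-fold in the deposited table and with normexp, and the ES difference of −2.23 (adjusted p = 3.6e-04) was −1.20 with the slide as a block (adjusted p = 0.11).

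*Peg12*, an intronless gene of the same region, rose from 33.5, 38.2 and 30.3% to 81.7, 72.2 and 109% in *Sox7* (+/−) cells and from 41.8, 41.3 and 34.5% to 92.3, 90.9 and 85.2% in *Sox7* (−/−) cells. The log2 differences were 1.35 and 1.20 (adjusted p = 2.3e-05 and 4.8e-05). In *Sox7* (+/−) cells it fell under 2-fold with spike-in scaling (0.86), and in both lines it did so in the deposited table (0.69 and 0.87) and with normexp (0.94 and 0.82). *Ndn*, the necdin gene, had 48.4, 47.4 and 51.5% against 112, 112 and 94.5% in *Sox7* (+/−) and 57.7, 57.8 and 50.3% against 71.5, 73.9 and 78.0% in *Sox7* (−/−) cells, ES first. It was called in *Sox7* (+/−) cells (1.11, adjusted p = 2.2e-06) and was at 0.43 in *Sox7* (−/−) cells, and the difference of responses, −0.68, was under 2-fold. That call was lost in the deposited table (0.49), with spike-in scaling (0.62), with normexp (0.78) and, barely under 2-fold, with median scaling. *Ube3a* and *Mkrn3* lay between −0.22 and 0.24 on the log2 scale in all comparisons.

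*Gnas*, the gene of the stimulatory G protein alpha subunit, rose in both lines. It was at 3506, 3646 and 3428% against 8066, 8429 and 6572% in *Sox7* (+/−) cells and at 3400, 3528 and 3282% against 9083, 8627 and 8487% in *Sox7* (−/−) cells, ES first. The log2 differences were 1.12 and 1.36 (adjusted p = 2.4e-06 and 4.2e-07). The former was under 2-fold with spike-in scaling and in the deposited table (0.63 in each), with quantile normalization (0.91) and with normexp (0.96). A probe of another part of the locus, mm9 chr2:174122337-174122396, went the other way, from 30.4, 27.0 and 31.8% to 12.1, 6.55 and 10.1% in *Sox7* (+/−) cells, where it was no longer well above background, and from 20.1, 20.3 and 28.9% to 9.72, 8.19 and 11.2% in *Sox7* (−/−) cells (at least 2.85-fold lower, adjusted p = 9.6e-05, and log2 −1.24, adjusted p = 6.7e-04). With the median over both probes the log2 differences were −0.28 in *Sox7* (+/−) and 0.06 in *Sox7* (−/−) cells.

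*Grb10*, an adaptor that restrains insulin and growth factor signalling, had 303, 281 and 154% in *Sox7* (+/−) ES, 392, 366 and 65.6% in *Sox7* (+/−) XEN-like, 235, 233 and 285% in *Sox7* (−/−) ES and 68.0, 57.7 and 71.4% in *Sox7* (−/−) XEN-like cells. *Sox7* (+/−) XEN-like replicate 3 lay among the *Sox7* (−/−) XEN-like arrays. *Grb10* was lower in *Sox7* (−/−) XEN-like cells by a log2 difference of −1.69 (adjusted p = 0.045), or −2.53 without that array (adjusted p = 1.1e-04) and −1.72 within slide 2 (adjusted p = 0.16). It fell by 1.93 with Dex in *Sox7* (−/−) cells (adjusted p = 0.013), a call lost with the slide as a block (−1.88, adjusted p = 0.098). The XEN-like call was lost under 17 of its alternatives. These include leaving out any single array other than *Sox7* (+/−) XEN-like replicate 3, with log2 differences from −1.24 to −1.75 and adjusted p from 0.052 to 0.14. *Inpp5f*, a phosphoinositide phosphatase gene, was at 52.6, 45.0 and 45.1% against 77.1, 86.0 and 71.4% in *Sox7* (+/−) and at 20.9, 27.1 and 37.5% against 80.4, 75.3 and 100% in *Sox7* (−/−) cells, ES first, and rose by 1.61 in the latter (adjusted p = 3.4e-05).

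The other tested imprinted genes were not called in any comparison. *Impact* was nearest to a call, with log2 differences of 0.96 and 0.92 with Dex (called in *Sox7* (+/−) cells without *Sox7* (+/−) XEN-like replicate 3, at 1.09), and *Mcts2*, *Plagl1*, *Zrsr1* and *Commd1* lay between −0.45 and 0.49. Together with *Igf2r*, *Meg3*, *Copg2*, *Ppp1r9a*, *Kcnq1ot1*, *Cd81*, *Tssc4*, *Nap1l4*, *Mkrn3* and *Ube3a* they make up the 15 tested genes without a call, against 24 with at least 1. The share of all genes with at least 1 call was not counted, so the 24 cannot be set against a background. With Dex alone 25.1% and 28.7% of all genes were called in *Sox7* (+/−) and *Sox7* (−/−) cells. Another 9 genes, *Rtl1*, *Usp29*, *Zim1*, *Asb4*, *Kcnq1*, *Nnat*, *Dcn*, *Nap1l5* and *Rasgrf1*, were not well above background on all 3 arrays of any group. *Nnat*, a brain-expressed gene, was at 7.50, 45.7 and 2.10% in *Sox7* (+/−) ES cells, 3.90, 2.97 and 3.90% in *Sox7* (+/−) XEN-like, 2.86, 3.94 and 6.15% in *Sox7* (−/−) ES and 6.19, 3.52 and 6.12% in *Sox7* (−/−) XEN-like cells, with 1 array far above the rest.

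Of 14 genes that keep or remove imprints, all tested, 6 fell with Dex in both lines, beside 10.6% of all genes, and 0 rose by limma, with 1 higher in each line at an unadjusted p under 0.05. *Zfp57* was at 192 ± 9.65% in *Sox7* (+/−) ES, 36.0 ± 2.35% in *Sox7* (+/−) XEN-like, 372 ± 12.5% in *Sox7* (−/−) ES and 18.7 ± 2.80% in *Sox7* (−/−) XEN-like cells (SD, n = 3). Its log2 differences with Dex were −2.41 and −4.33, and the difference of responses, −1.91, was called. In *Sox7* (+/−) and *Sox7* (−/−) cells, *Trim28* was at −1.28 and −1.46, *Dnmt3l* at −2.80 and −2.56, *Tet1* at −2.59 and −2.61 and *Tet2* at −2.43 and −2.86. *Dppa3*, the other gene that fell in both, was at 78.9 ± 8.78% and 21.2 ± 8.23% in *Sox7* (+/−) and *Sox7* (−/−) ES cells (SD, n = 3) and not well above background on any XEN-like array. *Uhrf1* and *Dnmt3b* were called in *Sox7* (−/−) cells, at −1.31 and −1.44. *Dnmt1*, which copies methylation at each division, was at −0.02 and −0.32, and *Dnmt3a*, *Setdb1*, *Ctcf*, *Tet3* and *Ehmt2* were not called either, *Ehmt2* at 0.18 and 0.60. Between the lines, only *Dppa3* of the 14 was called, lower by 1.95 in *Sox7* (−/−) ES cells, and *Zfp57* was at 0.96 in ES cells and −0.96 in XEN-like cells, under 2-fold in both.

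A further 30 imprinted genes not among the 49 were read for comparison, of which 18 were tested. With Dex, 3 rose and 5 fell in *Sox7* (+/−) cells, and 4 rose and 5 fell in *Sox7* (−/−) cells. Beside these stand 11% and 14.1% of all genes in *Sox7* (+/−) and 14.6% and 14.1% in *Sox7* (−/−) cells. Between the lines, 2 were higher and 0 lower in *Sox7* (−/−) ES cells (limma; 1 lower at an unadjusted p under 0.05), *Slc38a4* by 1.64 and *Qpct* by 1.07 on the log2 scale, and 2 were higher and 0 lower in XEN-like cells (limma; 2 lower at an unadjusted p under 0.05), *Gab1* by 1.17 and *Pon3* by 1.43, the last from signals not well above background in either XEN-like group. Of all genes, 1.97% were called higher and 6.63% lower in ES cells and 4.15% and 3.41% in XEN-like cells. None of these 4 was called in both states.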

How the data were processed

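Total RNA of 12 samples, 3 in each of 4 groups, was read on one-colour Agilent mouse arrays (59305 spots, 55681 probes). The authors deposited scanner intensity files from Feature Extraction 10.7.3.1, with background-subtracted processed intensity per spot and probe positions on mm9, and a table of the series whose values lay within 0.498% of the uncorrected mean intensity. From the deposited intensity, log2 values minus each array's 75th percentile were computed here, with control and outlier spots (139 to 190 per array) left out and spots of one probe averaged. Between 41.7 and 52.3% of probes were well above background, 0 spots were saturated, and the number of arrays limits the precision.

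A probe was tested when all 3 arrays of some group read it well above background (25940 probes). A gene was read by its brightest tested probe. limma 3.58.1 in R 4.3.3 fitted 1 mean per group over all 12 arrays, with Benjamini-Hochberg adjustment over all tested probes, after the script had been tested on simulated data. Values in every array were to be given for each gene called in any of 5 comparisons and for 12 cluster genes whatever their values. The genes were named from known imprinted clusters, with no value in the rule, but they and the lists were chosen with earlier results of these data known. Alternatives covered background correction, scaling, filters, probe choice, blocks and leaving out arrays. Normexp was run with an offset of 50, and the deposited table was fitted as log2 values without scaling. With these 2 settings *Mest* was at −4.07 and −4.56 between the lines in ES cells, against −6.97. *Calcr* was at −1.03 and −1.88 with Dex in *Sox7* (+/−) cells, against −3.63. Each of these has a group not well above background. Every value column was matched to a sample. Samples were grouped by their titles.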

Additional observations from a re-analysis of the deposited data

Results flagged for a closer look

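For 12 imprinted genes the Dex response itself differed between the genotypes, by the interaction term of the limma fit (*Sox7* (−/−) response minus *Sox7* (+/−) response, log2). The values were 5.33 for *H19*, 2.29 for *Igf2*, 1.09 for *Dlk1*, 2.46 for *Peg3*, 2.72 for *Peg10*, 1.58 for *Sgce* and 1.61 for *Calcr*. In the *Kcnq1* cluster they were 2.21 for *Cdkn1c*, 2.74 for *Phlda2*, 2.99 for *Ascl2*, 1.85 for *Slc22a18* and 1.75 for *Osbpl5*. The value of *Calcr* rests on signals not well above background in 3 of the 4 groups, and those of *Phlda2* and *Slc22a18* on such signals in *Sox7* (+/−) XEN-like cells. With normexp these last were 0.64 and 0.15 and the *Calcr* value 0.53, under 2-fold, and in the deposited table that of *Slc22a18* was 0.69 (adjusted p = 0.055). That of *Dlk1* was 0.99 without *Sox7* (+/−) ES replicate 2 and 0.97 without *Sox7* (+/−) XEN-like replicate 2, both under 2-fold. Groups of 3 arrays were not tested for single outlying arrays.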

How the results depend on the processing

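Of 68 called values of single genes, 40 kept their direction and call under each alternative that was run and 28 lost the call under at least 1, 8 of them on leaving out a single array. Only *Gnas* with Dex in *Sox7* (+/−) cells turned, to −0.28 with the median over its probes. The counts of imprinted genes called moved as follows. With an adjusted p alone, 29 and 29 were called with Dex in *Sox7* (+/−) and *Sox7* (−/−) cells and 21 in both, and 24 and 18 between the lines in ES and XEN-like cells and 7 in both, beside 64%, 66.2%, 47.6%, 46.6%, 35.3% and 15.6% of all genes. With probes well above background on all 12 arrays, which left 31 genes, 11 were called with Dex in *Sox7* (+/−) cells, 7 in both genotypes and 7 between the lines in XEN-like cells. Beside these stand 16.9%, 12.5% and 4.94% of the 14790 genes left in all. With normexp and with the deposited table, 7 each were called with Dex in both genotypes, beside 10.1% and 11.9% of all genes. Leaving out each array in turn gave 16 to 18 and 18 to 20 with Dex in *Sox7* (+/−) and *Sox7* (−/−) cells, 12 to 13 in both, 9 to 10 and 9 to 12 between the lines in ES and XEN-like cells, 2 to 4 in both and 12 to 15 for the difference of responses. Over all genes the shares were 24.1 to 25.7% and 28.2 to 28.9% with Dex, and 18.3 to 19.4% in both. Between the lines they were 8.08 to 8.86% and 6.7 to 8.58%, with 1.24 to 1.57% in both, and 9.27 to 10.8% for the difference of responses. The slide as a block gave 8 and 9 between the lines and 2 in both states, beside 6.12%, 6.77% and 0.927% of all genes.

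The median of all probes shifted with the scaling, from 0.16 to −0.34 with spike-in scaling and −0.23 in the deposited table for Dex in *Sox7* (+/−) cells, and from 0.00 to 0.25 and 0.34 between the lines in XEN-like cells. Arrays with the same replicate number did not deviate together (correlations −0.0508 to 0.1256, over 0.1 in 3 of 18 pairs). With the replicate number as a block the counts were 17, 18, 10, 12 and 12 for Dex in *Sox7* (+/−), Dex in *Sox7* (−/−), the lines in ES, the lines in XEN-like cells and the difference of responses, 3 in both states and 12 in both genotypes. Beside these stand 25.3%, 28.8%, 8.65%, 7.68% and 10.1% of all genes, 1.46% in both states and 19% in both genotypes. The fall of *Dio3* lost its call with this block (−1.80, adjusted p = 0.054), and *Kcnq1ot1* gained one with Dex in *Sox7* (+/−) cells (1.47) and between the lines in XEN-like cells (−1.63).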
